A study of Mus musculus with 7 samples.

Results

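Transcripts of 10 target genes of the tumour suppressor p53 were compared between livers with and without a deletion of B4galt1 aimed at hepatocytes. The genes were Cdkn1a, Mdm2, Ccng1, Bax, Phlda3, Gadd45a, Gadd45b, Sesn1, Btg2 and Pmaip1. They were taken by name from the 23347 genes of the liver count table, and all 10 passed the filter on low counts that left 15179 genes to test. B4galt1 encodes a galactosyltransferase of the Golgi apparatus, and the study asked how its loss from hepatocytes alters diet-induced steatohepatitis. RNA came from whole livers of 7 male mice with a C57BL/6 background, with 1 library per mouse. All 7 had been fed CDAHFD, a choline-deficient, amino acid-defined high-fat diet that brings on steatohepatitis, for 15 weeks from an age of 6 to 8 weeks. The 4 control mice were B4galt1 flox/flox, carry the floxed allele without Cre and are called WT in the sample labels. The 3 other mice, B4galt1 hep-/- and labelled B4galt1-HKO, carry the same floxed alleles and Alb-Cre, in which the albumin promoter drives Cre recombinase in hepatocytes. Whether all other cells of the liver kept the gene cannot be read from whole-liver RNA. The controls were littermates. Mice on chow are not part of the data analysed here.

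The p53 protein is a transcription factor that is held at a low level by Mdm2, a ubiquitin ligase that is itself a target of p53. When DNA damage or other stress frees p53 from Mdm2, it binds pairs of short DNA half-sites near its targets and raises the transcripts of genes that halt the cell cycle, repair DNA, limit growth signals or start apoptosis. Several of these genes also respond to other signals, and in liver Cdkn1a is known as a brake on the division of hepatocytes.

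To show where these half-sites lie, the 250 bases before each annotated transcription start in RefSeq were searched on both strands for the p53 half-site, 10 bases made of 3 purines, C, A or T at each of 2 positions, G and 3 pyrimidines. A start was listed for 9 of the 10 genes, and 6 of these 9 held at least 1 match, against 8.20% of all 27025 genes with a listed start. A match is a description of letters and no measurement of binding. Cdkn1a had 2 matches, 64 and 42 bases before the more distant of its 2 annotated starts, which lie 2790 bases apart. The second match was 2832 bases before the nearer start. The search allowed no mismatch, so near matches are not in capitals. The 10 bases right after the second match, tgacatgttc, differ from the pattern in their first base only. Which of these stretches p53 binds as a pair cannot be read from the search. The whole window is shown for Cdkn1a, the gene with the largest change among the 10, and 60 bases around the match for the other 5 genes, all 5′ to 3′ on the strand of the gene in GRCm38.p6, with the half-sites in capitals.
Cdkn1a, chr17:29090729-29090978, plus strand: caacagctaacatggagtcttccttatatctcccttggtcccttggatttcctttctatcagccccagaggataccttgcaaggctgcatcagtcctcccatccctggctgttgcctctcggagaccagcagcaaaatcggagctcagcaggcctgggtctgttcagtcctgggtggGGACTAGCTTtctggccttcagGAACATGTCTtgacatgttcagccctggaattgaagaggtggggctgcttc
Mdm2, chr10:117710910-117710969, minus strand: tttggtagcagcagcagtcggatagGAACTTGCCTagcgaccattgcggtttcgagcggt
Ccng1, chr11:40755437-40755496, minus strand: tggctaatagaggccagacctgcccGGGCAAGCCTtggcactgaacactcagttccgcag
Bax, chr7:45467065-45467124, minus strand: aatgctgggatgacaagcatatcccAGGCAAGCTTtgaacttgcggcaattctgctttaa
Gadd45a, chr6:67037413-67037472, minus strand: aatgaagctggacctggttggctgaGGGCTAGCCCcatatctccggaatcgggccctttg
Sesn1, chr10:41887241-41887300, plus strand: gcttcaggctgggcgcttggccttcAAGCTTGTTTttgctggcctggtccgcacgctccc
No match was found in the windows of Phlda3, Gadd45b and Btg2, which says only that these letters are not in these windows.

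Total counts were 37838654 to 39668509 in the flox/flox libraries and 30608271 to 34586588 in the hep-/- libraries. B4galt1 itself was at 48.7, 52.95, 49.2 and 51.6 CPM (counts relative to the library total, scaled by the TMM method of edgeR) in flox/flox replicates 1 to 4, and at 28.4, 23.9 and 53.7 in hep-/- replicates 1 to 3. The library labelled hep-/- replicate 3 thus held as much B4galt1 as the controls, and the change of each of the 10 genes is also given without it. With all 7 mice B4galt1 differed by -0.52 ± 0.26 (log2 fold change ± SE, hep-/- against flox/flox, as throughout) with an adjusted p = 0.181 (quasi-likelihood test of edgeR, adjusted by Benjamini-Hochberg), and by -0.96 with an adjusted p = 0.0139 without that library. Deletion in hepatocytes and fewer hepatocytes in the sample, or less RNA per cell, cannot be told apart in whole liver for any gene. A gene was said to rise or fall at an adjusted p under 0.05 in the same test with an absolute log2 fold change over 0.58, and 8.0% of tested genes rose and 7.83% fell. On the authors' FPKM values, which scale counts by gene length and library total without a correction for composition, 601 genes rose and 1946 fell by limma on log2(FPKM + 0.1), and the median of the 10914 genes tested on both scales moved from -0.05 to -0.18. Mitochondrially encoded transcripts took 3.88% to 7.996% of counts in flox/flox and 14.4% to 22.6% in hep-/- libraries (exact permutation test, two-sided, p = 0.0286, the smallest that 4 against 3 mice allow). Hepatocyte markers were high in every mouse, with a sum of 74503 to 112857 CPM in flox/flox and 91891 to 144023 CPM in hep-/-. Alb made up most of this sum, at 57197 to 90888 CPM in flox/flox and 70086 to 112935 CPM in hep-/-. Of the 7 hepatocyte markers 0 rose and 0 fell, with log2 fold changes above 0 for 5 and below 0 for 2. Of 9 macrophage markers 6 fell, Lyz2, Gpnmb, Cd68, Adgre1, Marco and Trem2, and the 9 summed to 1352 to 3243 CPM in flox/flox and 600 to 737 CPM in hep-/- (two-sided exact permutation p = 0.0571). Of these markers, 4 fell without hep-/- replicate 3, and also 4 without flox/flox replicate 2 or 3. The part of these differences in the results on p53 targets was not tested.

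Of the 10 genes, 3 rose in hep-/- livers and 0 fell, beside 8.0% and 7.83% of all tested genes. Those that rose were the cell cycle inhibitor Cdkn1a, the apoptosis gene Bax and the stress sensor Gadd45b. Cdkn1a was raised 4.59-fold and by far the most, and its change alone was called under each of 18 alternative settings. Without flox/flox replicates 2 or 3 or hep-/- replicates 1 or 2, Cdkn1a was the only one of the 10 past the threshold. The log2 fold changes of the 10 genes had a median of 0.17, beside 0.02 for all tested genes, with 8 above and 2 below 0. That tally depended on the scale. On log2(FPKM + 0.1), Btg2, Phlda3, Pmaip1 and Sesn1 were also below 0 (-0.118, -0.0074, -0.0057 and -0.022). Only Cdkn1a, Mdm2, Bax and Gadd45b stayed above it. The median of all genes tested on both scales was -0.18 there. Every hep-/- mouse was above every flox/flox mouse for 3 genes, Cdkn1a, Mdm2 and Bax, and 13.6% of all tested genes were separated in that direction.

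**Figure D1:**
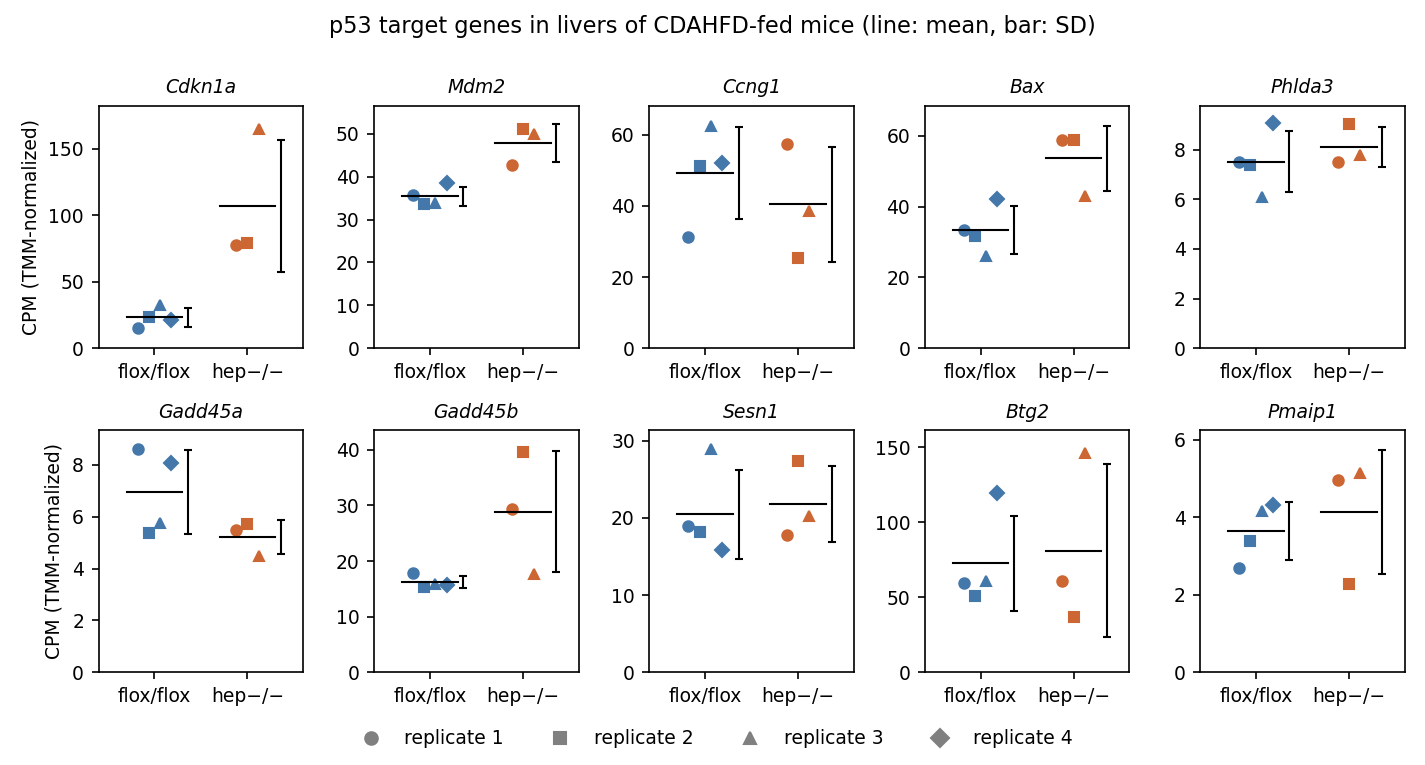
TMM-normalized CPM of each p53 target gene (y axis, from 0) in 4 flox/flox and 3 hep-/- livers (x axis), 1 point per mouse with the replicate number as its shape, a line for the mean and a bar for the SD. Cdkn1a, Mdm2 and Bax are higher in all 3 hep-/- mice than in all 4 flox/flox mice, and the groups overlap for the other 7 genes.

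Cdkn1a encodes p21, the inhibitor of cyclin-dependent kinases through which p53 stops cells before they copy their DNA. It was at 15.4, 23.8, 32.8 and 21.2 CPM in flox/flox replicates 1 to 4 and at 77.4, 78.7 and 164 CPM in hep-/- replicates 1 to 3. The lowest hep-/- mouse was above the highest control, and replicate 3, the library whose B4galt1 was not reduced, was the highest of all. The log2 fold change was 2.20 ± 0.31 (SE, 95% interval 1.52 to 2.88) with an adjusted p = 0.00313 by edgeR's quasi-likelihood test. Without hep-/- replicate 3 it was 1.74 ± 0.26 with an adjusted p = 0.00663 in the same test, and over all alternatives it ran from 1.74 to 2.41. A predicted gene on the opposite strand overlaps its exons, and the sources used here do not say whether counting used strand.

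Btg2, an antiproliferative gene that is induced early after stress as well as by p53, did not pass the threshold. Its CPM was 59.5, 50.9, 60.7 and 119 in flox/flox replicates 1 to 4 and 60.6, 36.6 and 146 in hep-/- replicates 1 to 3. The groups overlapped throughout, with 1 high mouse in each, flox/flox replicate 4 and hep-/- replicate 3. The log2 fold change was 0.16 (95% interval -0.76 to 1.08, adjusted p = 0.818 in the same edgeR test), turned to -0.59 without hep-/- replicate 3 and was -0.12 on the log2(FPKM + 0.1) scale. Ccng1, which encodes cyclin G1, a regulator of Mdm2 activity, was at 31.2, 51.1, 62.3 and 52.1 CPM in flox/flox replicates 1 to 4 and 57.4, 25.3 and 38.5 CPM in hep-/- replicates 1 to 3. Both groups spanned nearly the same range, and the log2 fold change of -0.28 (95% interval -0.92 to 0.35) had an adjusted p = 0.529 with edgeR. It was -0.64 without hep-/- replicate 1 (adjusted p = 0.16), -0.04 without replicate 2 and -0.26 without replicate 3.

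Mdm2, the ligase that marks p53 for degradation, closes the feedback loop of the pathway. It was at 35.8, 33.6, 33.9 and 38.5 CPM in flox/flox replicates 1 to 4 and at 42.7, 51.1 and 49.9 CPM in hep-/- replicates 1 to 3. The 3 hep-/- mice lay above the 4 controls by a narrow margin. The log2 fold change of 0.43 ± 0.16 (SE, 95% interval 0.08 to 0.79) did not pass the threshold, with an adjusted p = 0.0903 by edgeR's quasi-likelihood test, nor did it in any of 18 alternatives, and it was 0.39 without hep-/- replicate 3. On the FPKM scale the groups overlapped, at 4.55 to 5.52 in flox/flox and 5.20 to 7.46 in hep-/- livers.

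Bax and Pmaip1 (which encodes Noxa) are the members that act in apoptosis, Bax by opening the outer mitochondrial membrane and Noxa by binding the survival protein Mcl1. Bax was at 33.3, 31.8, 26.0 and 42.2 CPM in flox/flox replicates 1 to 4 and at 59.0, 58.9 and 43.0 CPM in hep-/- replicates 1 to 3. Replicates 1 and 2 labelled hep-/- stood well above the controls, while replicate 3 exceeded flox/flox replicate 4 by less than 1 CPM. Bax rose by 0.69 ± 0.21 on the log2 scale (SE, 95% interval 0.24 to 1.14) with an adjusted p = 0.0439 by edgeR's quasi-likelihood test, and by 0.81 (adjusted p = 0.0351) without hep-/- replicate 3. The call was kept in 9 of 18 alternatives and in 2 of the 7 fits that left out 1 mouse, and was lost without flox/flox replicates 1, 2 or 3 or hep-/- replicates 1 or 2, where the log2 fold change was 0.58 to 0.69. On log2(FPKM + 1) the change was 0.55 (adjusted p = 0.0666 by limma), and the FPKM of both groups overlapped. An annotated gene on the same strand, which the count table does not list, overlaps exons of Bax.

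Pmaip1 was the member with the lowest level, at 2.69, 3.39, 4.17 and 4.32 CPM in flox/flox replicates 1 to 4 and 4.97, 2.29 and 5.13 CPM in hep-/- replicates 1 to 3. Its lowest and its 2 highest values were all in hep-/- mice. The log2 fold change of 0.18 had a 95% interval of -0.56 to 0.93 and an adjusted p = 0.743 with edgeR, and was -0.01 without hep-/- replicate 3 and also on the log2(FPKM + 0.1) scale.

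The Gadd45 genes encode small proteins that sense stress and act on kinase cascades and DNA repair, of which Gadd45a is the classic p53 target and Gadd45b also answers to NF-kB and TGF-beta. Gadd45b was at 17.8, 15.3, 15.9 and 15.7 CPM in flox/flox replicates 1 to 4 and at 29.3, 39.6 and 17.8 CPM in hep-/- replicates 1 to 3. Replicates 1 and 2 labelled hep-/- were above all controls, and replicate 3 was level with flox/flox replicate 1, so the groups met. Gadd45b rose by 0.84 ± 0.24 on the log2 scale (SE, 95% interval 0.31 to 1.36, adjusted p = 0.0386 by edgeR's quasi-likelihood test), and by 1.08 (adjusted p = 0.0108) without hep-/- replicate 3. As for Bax, the call was kept in 9 of 18 alternatives and 2 of 7 fits that left out 1 mouse, and was lost without flox/flox replicates 2, 3 or 4 or hep-/- replicates 1 or 2, where the log2 fold change was 0.54 to 0.83.

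Gadd45a showed no such rise. It was at 8.60, 5.37, 5.76 and 8.05 CPM in flox/flox replicates 1 to 4 and at 5.49, 5.70 and 4.47 CPM in hep-/- replicates 1 to 3, where the hep-/- mice lay at the low end of the controls. The log2 fold change of -0.41 (95% interval -0.98 to 0.16) had an adjusted p = 0.297 with edgeR, and was -0.32 without hep-/- replicate 3. E230016M11Rik, on the opposite strand, overlaps exons of Gadd45a. Whether Gadd45a and Gadd45b differed from each other in their change was not tested.

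Sesn1 and Phlda3 restrain growth signals, Sesn1 (sestrin 1) by inhibiting mTORC1 and Phlda3 by blocking the recruitment of Akt to the membrane. Sesn1 was at 19.0, 18.2, 28.9 and 15.9 CPM in flox/flox replicates 1 to 4 and 17.8, 27.4 and 20.2 CPM in hep-/- replicates 1 to 3. Phlda3 was at 7.52, 7.40, 6.09 and 9.07 CPM in flox/flox replicates 1 to 4 and 7.50, 9.02 and 7.80 CPM in hep-/- replicates 1 to 3. The hep-/- mice lay within the range of the controls for both genes. The log2 fold changes were 0.09 for Sesn1 (95% interval -0.44 to 0.61, adjusted p = 0.825) and 0.11 for Phlda3 (95% interval -0.38 to 0.60, adjusted p = 0.768) in the same edgeR test. They were 0.13 for both without hep-/- replicate 3, and on the log2(FPKM + 0.1) scale they were -0.02 and -0.01.

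**Figure D2:**
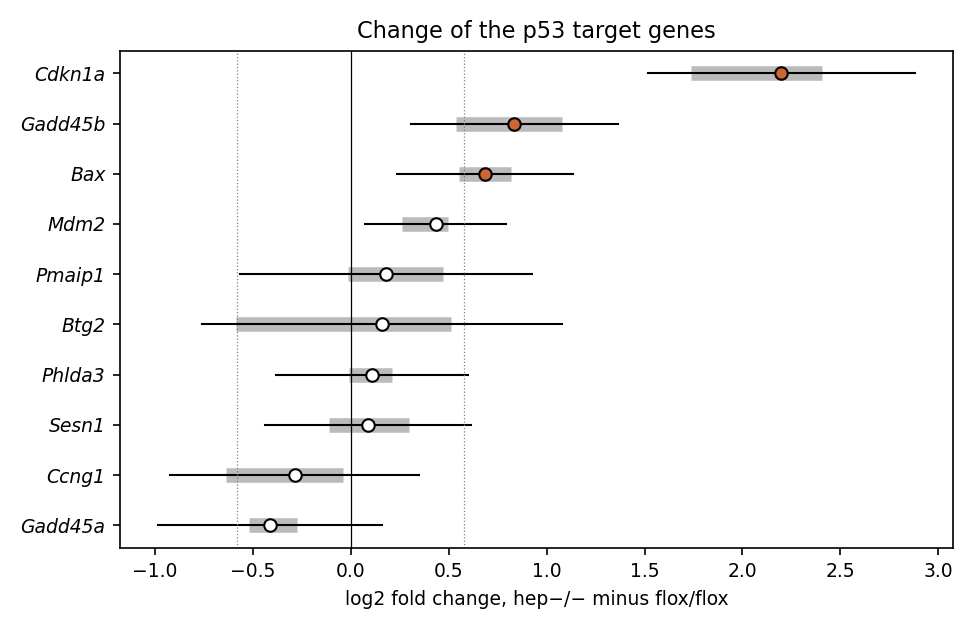
Log2 fold change of each p53 target gene, hep-/- minus flox/flox (x axis), with genes on the y axis. Points are the edgeR estimates, filled where the gene passed the threshold, black lines are 95% intervals, grey bands run over the 18 alternatives, and dotted lines mark the threshold of 0.58. The band of Cdkn1a, 1.74 to 2.41, lies apart from those of the other 9 genes.

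The mice that were highest differed from gene to gene. Of the hep-/- mice, replicate 2 was the highest for 5 of the 10 genes, Mdm2, Phlda3, Gadd45a, Gadd45b and Sesn1, replicate 3 for the 3 genes Cdkn1a, Btg2 and Pmaip1, and replicate 1 for the other 2, Ccng1 and Bax. Levels of different genes were compared as FPKM. In flox/flox livers the order by mean FPKM was Bax (35.9 ± 5.59), Btg2 (24.0 ± 8.47), Ccng1 (14.8 ± 3.80), Gadd45b (13.4 ± 1.996), Cdkn1a (11.9 ± 3.88), Sesn1 (6.44 ± 2.11), Gadd45a (5.92 ± 1.58), Phlda3 (5.30 ± 0.65), Mdm2 (4.96 ± 0.40) and Pmaip1 (1.41 ± 0.24; SD, n = 4). In hep-/- livers Cdkn1a stood next to Bax, at 49.1 ± 19.3 FPKM against 53.9 ± 13.6 (SD, n = 3). Neighbours in both orders overlapped between mice except at the last step, where Pmaip1 lay below all others. Cdkn1a was the one gene of the 10 whose groups did not overlap as FPKM, with 8.63 to 17.4 in flox/flox and 34.4 to 71.0 in hep-/- livers.

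Trp53, the gene for p53 itself, was at 31.0, 28.8, 23.2 and 25.2 CPM in flox/flox replicates 1 to 4 and 27.5, 34.0 and 28.2 CPM in hep-/- replicates 1 to 3, which overlapped. Its log2 fold change was 0.14 (95% interval -0.25 to 0.54, adjusted p = 0.609 by edgeR's quasi-likelihood test) and 0.18 without hep-/- replicate 3, which is a statement on the transcript and not on p53 protein, whose level is set mostly after translation. Of 16 tested regulators of p53, 1 rose and 0 fell, beside 8.0% and 7.83% of all tested genes. The falls numbered 1 by DESeq2 and by limma on log2(FPKM + 1) or log2(FPKM + 0.1) with a filter. The gene that rose was Mdm4, the partner of Mdm2 that binds p53 and blocks its activity. Mdm4 was at 83.8, 58.1, 37.9 and 63.7 CPM in flox/flox replicates 1 to 4 and at 103, 208 and 141 CPM in hep-/- replicates 1 to 3, so that all hep-/- mice were above all controls. It rose by 1.31 ± 0.29 (log2, SE, adjusted p = 0.0145 by edgeR) and by 1.34 without hep-/- replicate 3, and the call was lost in 2 of 18 alternatives, without flox/flox replicate 2 and on unfiltered log2(FPKM + 1), at 1.002 to 1.51 over the 7 mice left out in turn.

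Among 23 tested relatives of the 10 genes, 3 rose and 1 fell, beside 8.0% and 7.83% of all tested genes, with a median log2 fold change of 0.09. With 1 mouse left out in turn, the rises numbered 1 (without flox/flox replicate 2, Gadd45g) to 4 (without hep-/- replicate 2). The falls numbered 0 without flox/flox replicate 2 or hep-/- replicate 2 and 2 without hep-/- replicates 1 or 3, and were 3 in each fit on FPKM. Gadd45g, the third Gadd45 gene, was at 22.9, 23.7, 31.7 and 45.1 CPM in flox/flox replicates 1 to 4 and 76.8, 91.7 and 229 CPM in hep-/- replicates 1 to 3. Like Cdkn1a, it was separated between the groups and highest in hep-/- replicate 3. It rose by 2.10 ± 0.37 on the log2 scale (SE, adjusted p = 0.00627 by edgeR's quasi-likelihood test), by 1.44 (adjusted p = 0.0115) without that library, and was called in all 18 alternatives. Ccng2, a relative of Ccng1 that is known as a target of FoxO factors and not of p53, rose by 1.14 ± 0.32 (log2, SE, adjusted p = 0.0346 by edgeR), and was at 0.96 (adjusted p = 0.102) without hep-/- replicate 3. Its call was lost in 5 of the 7 fits that left out 1 mouse, those without flox/flox replicates 1, 2 or 4 or hep-/- replicates 1 or 3, at 0.95 to 1.18. Bak1, which opens the mitochondrial membrane as Bax does, fell by 0.80 ± 0.18 on the log2 scale (SE, adjusted p = 0.0166 by edgeR), and by 0.76 without hep-/- replicate 3. Its call was lost without flox/flox replicate 2 (-0.77) and without hep-/- replicate 2 (-0.74). The third of the genes that rose was Mdm4, a relative of Mdm2.

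**Figure D3:**
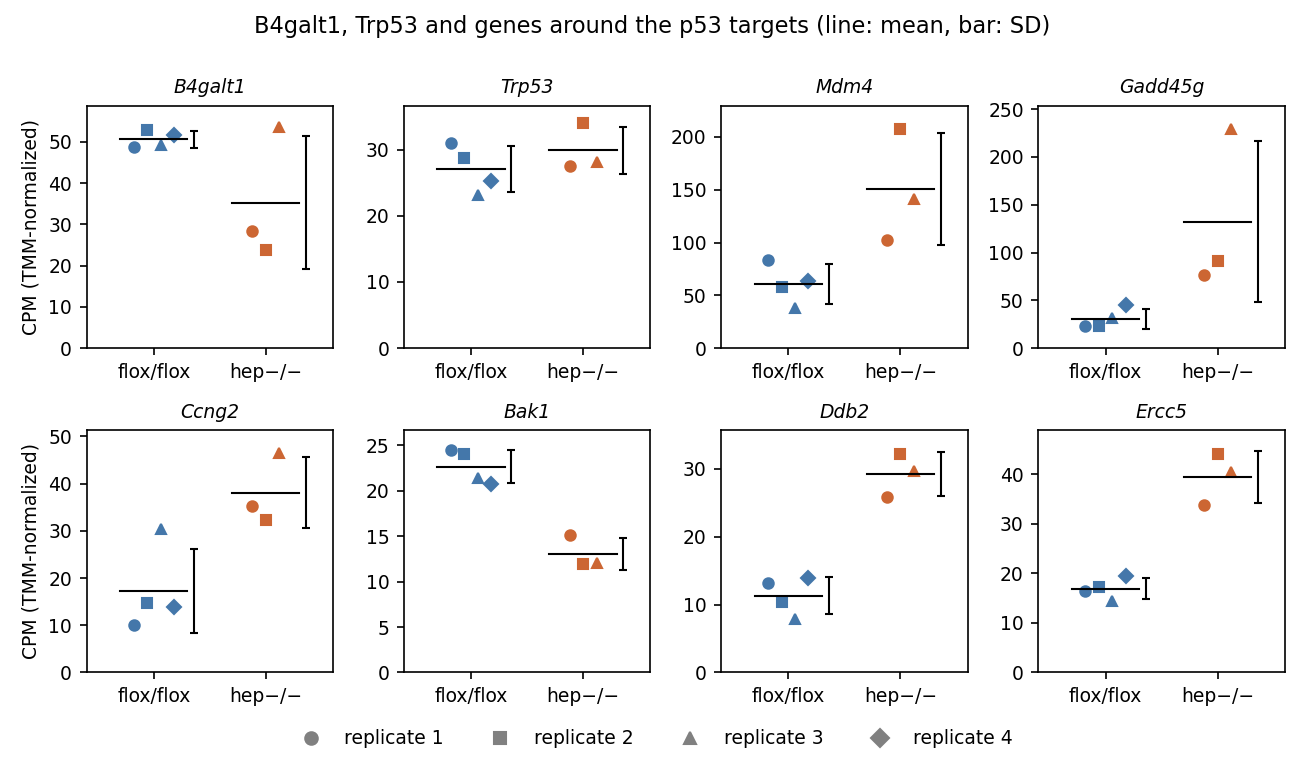
TMM-normalized CPM (y axis, from 0) of B4galt1, Trp53, Mdm4, Gadd45g, Ccng2, Bak1, Ddb2 and Ercc5 in 4 flox/flox and 3 hep-/- livers (x axis), with 1 point per mouse, the replicate number as its shape, a line for the mean and a bar for the SD. B4galt1 of hep-/- replicate 3 (53.7 CPM) sits with the controls, while Mdm4, Gadd45g, Ccng2, Ddb2 and Ercc5 are higher in all 3 hep-/- mice.

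Of 37 other p53 targets that were tested, 4 rose and 2 fell, beside the same 8.0% and 7.83% of all tested genes, and their median log2 fold change was 0.18. Every hep-/- mouse was above every flox/flox mouse for 6 of them and below for 7, beside 13.6% and 15.0% of all tested genes. Without flox/flox replicate 2 or hep-/- replicate 1, 3 of them passed the threshold in either direction. By DESeq2 8 rose and 2 fell, by voom with sample quality weights 10 rose and 2 fell, and by limma on log2(FPKM + 1) or log2(FPKM + 0.1) 4 rose and 4 fell (2 and 3 without a filter). Ddb2 and Ercc5, which act in nucleotide excision repair, rose by 1.37 ± 0.22 and 1.22 ± 0.18 (log2, SE, adjusted p = 0.00465 and 0.00369 by edgeR's quasi-likelihood test). Ddb2 was at 7.85 to 14.0 CPM in flox/flox and 25.9 to 32.2 CPM in hep-/- livers, and Ercc5 at 14.4 to 19.5 and 33.8 to 44.0 CPM. Both were separated between the groups, kept their call in all 18 alternatives and were at 1.35 and 1.19 without hep-/- replicate 3. Fdxr, a mitochondrial ferredoxin reductase, rose by 1.29 ± 0.37 (adjusted p = 0.0365 by edgeR) and by 1.44 without hep-/- replicate 3. That call was kept in 13 of 18 alternatives and lost without flox/flox replicates 2 or 3 or hep-/- replicates 1 or 2. The kinase Plk3 rose by 0.98 ± 0.30 (adjusted p = 0.0471 by edgeR) and was at 0.75 (adjusted p = 0.14) without hep-/- replicate 3. It kept its call only without flox/flox replicate 4 or hep-/- replicate 2 among the 7 fits that left out 1 mouse.

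The 2 targets that fell were Steap3, a ferrireductase, and Triap1, a small survival protein. Steap3 fell by 1.37 ± 0.18 on the log2 scale (SE, adjusted p = 0.00257 by edgeR) from 20.03 to 21.5 CPM in flox/flox to 7.69 to 8.57 CPM in hep-/- livers, and by 1.35 without hep-/- replicate 3. Triap1 fell by 0.89 ± 0.25 (adjusted p = 0.0365 by edgeR) and by 1.02 without hep-/- replicate 3. That call was kept in 11 of 18 alternatives and in 2 of the 7 fits that left out 1 mouse, those without flox/flox replicate 4 or hep-/- replicate 3.

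Ppm1d, Bbc3, Fas and Gdf15 did not pass the threshold. The phosphatase Ppm1d, which switches off p53 signalling, was at 4.15 to 6.88 CPM in flox/flox and 7.66 to 8.66 CPM in hep-/- livers, with a log2 fold change of 0.54 (95% interval -0.02 to 1.11, adjusted p = 0.164 by edgeR). Its groups did not overlap. Bbc3, which encodes the apoptosis activator Puma, and the death receptor gene Fas had log2 fold changes of 0.41 (95% interval -0.21 to 1.02, adjusted p = 0.342) and 0.32 (95% interval -0.10 to 0.75, adjusted p = 0.27) in the same edgeR test. Gdf15, a secreted stress hormone, had one of 0.86 (95% interval 0.02 to 1.70, adjusted p = 0.145). Without hep-/- replicate 3 the log2 fold changes were 0.58 for Ppm1d, 0.53 for Bbc3, 0.35 for Fas and 1.18 for Gdf15, whose adjusted p was then 0.0523 by edgeR. Over the 7 mice left out in turn they ran from 0.42 to 0.66 for Ppm1d and 0.16 to 0.53 for Bbc3. The ranges were 0.22 to 0.43 for Fas and 0.39 to 1.18 for Gdf15.

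Genes of 4 processes that meet the p53 targets were counted in the same fit, again beside 8.0% of all tested genes that rose and 7.83% that fell. Of 29 cell cycle genes, 0 rose and 4 fell, with a median of -0.49: Ccnd1 (-1.39), Mcm4 (-1.13), Pcna (-0.84) and Cdk6 (-0.60). The count of 4 was 8 without hep-/- replicate 1, 2 without flox/flox replicates 3 or 4, and 1 without flox/flox replicate 2, hep-/- replicate 2 or hep-/- replicate 3. Without hep-/- replicate 3 the log2 fold changes were -1.18 for Ccnd1, -1.20 for Mcm4, -0.92 for Pcna and -0.52 for Cdk6, with adjusted p-values of 0.0379, 0.0571, 0.054 and 0.116 by edgeR. Cyclin D1, Mcm4 and Cdk6 serve the entry into DNA replication and Pcna is its sliding clamp. Pcna is also a p53 target, but was not on the list of other p53 targets counted above. Of 14 immediate early genes, which respond within minutes to many signals, 2 rose, Ier3 (1.997) and Dusp1 (1.02), and neither passed without hep-/- replicate 3 (1.12 and 0.81, adjusted p = 0.0523 and 0.0581 by edgeR) or without flox/flox replicate 2. Of 12 genes of the integrated stress response, Ddit3 (0.73), Ppp1r15a (0.76) and Atf4 (0.94) rose, and Asns (-1.71) and Trib3 (-1.06) fell. Without hep-/- replicate 3, Ddit3 (0.73), Ppp1r15a (0.78) and Asns (-1.75) kept their call, Trib3 was at -0.999 (adjusted p = 0.0519 by edgeR), and Atf4 did not pass. The rises numbered 0 without flox/flox replicate 2, 1 without flox/flox replicate 3 or hep-/- replicate 2 and 2 without any other mouse, and Asns was the only gene that fell without flox/flox replicate 2 or hep-/- replicates 2 or 3. The rises numbered 1 on log2(FPKM + 1), 2 on log2(FPKM + 0.1) and 0 on log2(FPKM + 1) without a filter. Of 14 circadian clock genes 4 rose and 2 fell, among them Per2 (1.65), Bmal1 (2.38), Cry1 (1.71) and Dbp (-1.79). Without hep-/- replicate 3 they were at 1.61, 1.45, 1.03 and -1.43, and Cry1 lost its call (adjusted p = 0.0808 by edgeR), as it did without flox/flox replicates 2 or 4. The 4 rises were 2 without either of these controls, and the 2 falls were 1 without either of them or hep-/- replicates 1 or 3. The labels and methods used here give no hour of dissection for single mice. The part of the clock, stress response and immediate early genes in the changes of the p53 targets was not tested.

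**Figure D4:**
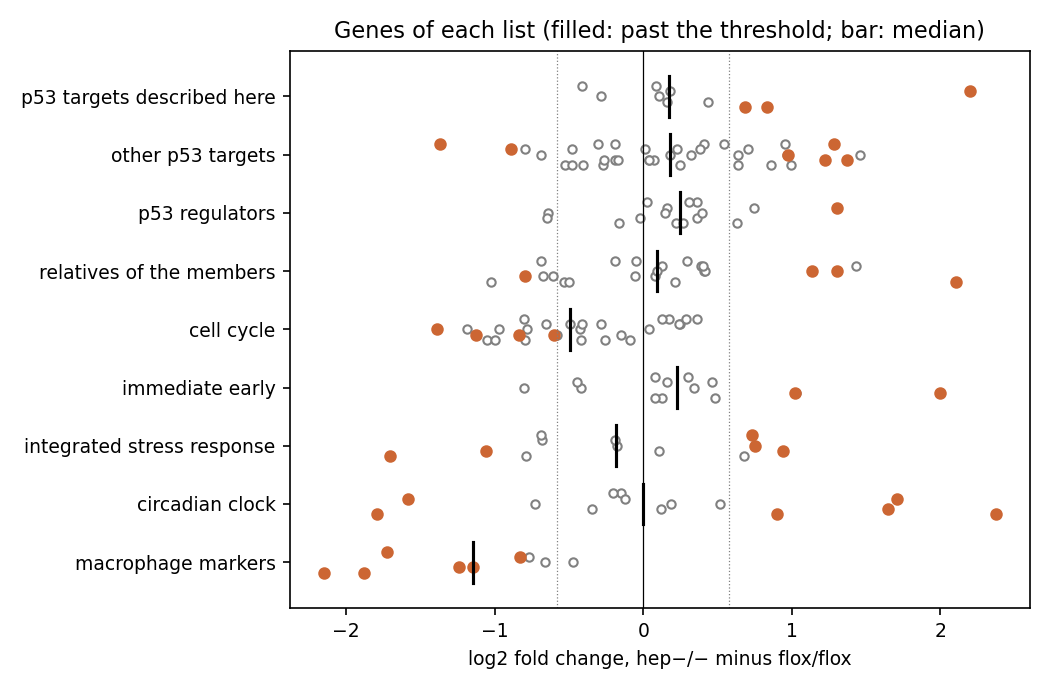
Log2 fold change, hep-/- minus flox/flox (x axis), of each tested gene in 9 gene lists (y axis). Filled points passed the threshold, open points did not, black bars are the medians of the lists and dotted lines mark the fold threshold of 0.58. Cdkn1a, at 2.20, stands apart among the p53 targets described here, and the other 9 lie between -0.41 and 0.84.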

How the data were processed

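The authors extracted total RNA from liver with TRIzol and prepared libraries with a VAHTS Universal V6 kit. The submitters' processing notes name fastp, HISAT2, HTSeq, DESeq2, R 3.2.0 and the build GRCm39, and the annotation and strand setting are not given in the sources used here. The authors deposited whole-number counts per gene and mouse without normalization, and FPKM values. For each of the 13374 genes checked, counts divided by FPKM and by library total gave the same value in every mouse. The FPKM values thus follow from the same counts by library total and a constant per gene. Gene lengths were not checked.

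Here genes were kept by filterByExpr (minimum count 10, minimum total 15), scaled by TMM and compared in R 4.3.3 by the quasi-likelihood test of edgeR 4.0.16, with group the sole term and Benjamini-Hochberg adjustment over 15179 genes. CPM values are TMM-normalized. Calls needed an adjusted p below 0.05 and a log2 fold change beyond 0.58 in size. In a library 3 counts correspond to 0.0690 to 0.0987 CPM. Single values per mouse were compared by a two-sided exact permutation test over 35 splits. The labels give no litter, cage or day of dissection for single mice, and the p-values rest on the variation among these mice alone. No pair of the 7 libraries agreed within sampling noise. The fit was tested on simulated data.

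Results were recomputed with DESeq2 1.42.0, with normalization by RLE or by upper quartile, 2 other filters on low counts, leaving out the 13 mitochondrially encoded genes, limma 3.58.1 on FPKM (pseudocounts 1 and 0.1, with a filter of FPKM 1 in 3 mice, and pseudocount 1 unfiltered), voom with a quality weight per sample, a block for the replicate number, no fold threshold, and without each mouse. A pseudocount understates the change of low genes.

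The members and lists were chosen with earlier results of these data known. The text names all 10 members, B4galt1, every called gene among other p53 targets, regulators and relatives, with Trp53, Mdm4, Ppm1d, Bbc3, Fas and Gdf15 whatever their result, and up to 4 called genes of each other list by lowest adjusted p. The third stress response increase, Atf4, and 2 macrophage markers, Marco and Trem2, were named after their values were seen. So were Alb and Spp1, the largest parts of their marker sums. The rule also named the 2 most abundant genes of lists without a call, and those lists are given as sums instead. 1 gene of the list of other p53 targets is not reported here and was left out of its counts. Promoter windows came from RefSeq on GRCm38.p6 and were matched by symbol for 9 of 10 genes.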

Additional observations from a re-analysis of the deposited data

Results flagged for a closer look

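Among the 4 flox/flox mice, 20 measures were checked for a mouse far from the others, the CPM of the 10 p53 targets and the summed levels of other measures, and 2 had one. Chance gives about 1 in 20 such groups. Btg2 was at 119 CPM in flox/flox replicate 4, where the other 3 controls were at 50.9 to 60.7. Without that mouse its log2 fold change was 0.51, with an adjusted p = 0.434 by edgeR. The endothelial markers summed to 259 CPM in flox/flox replicate 3, where the other 3 controls were at 64.8 to 97.6 CPM and the hep-/- mice at 85.2 to 106 CPM. The same control held the highest level of the macrophage markers, 3243 CPM, and of Cdkn1a among controls, 32.8 CPM.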

How the results depend on the processing

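Cdkn1a kept its direction and its call under all 18 alternatives. The 10 p53 targets had 3 calls, and 1 under limma on log2(FPKM + 1), log2(FPKM + 0.1) and log2(FPKM + 1) without a filter and with the replicate number as a block, and 1 to 3 when each mouse was left out in turn. Leaving out a mouse gave 885 to 2396 calls among all genes (2404 with every mouse, 885 without flox/flox replicate 2), 3 to 7 among other p53 targets, 11 to 28 among the other lists and a B4galt1 log2 fold change of -0.96 to -0.30. All genes had 1330 calls and the other lists 11 on unfiltered log2(FPKM + 1). Other p53 targets had 12 calls under voom with quality weights and 10 under DESeq2, not 6, and 3 without flox/flox replicate 2 or hep-/- replicate 1. B4galt1 was called at -0.67 on log2(FPKM + 1) and -0.73 on log2(FPKM + 0.1). The replicate block gave 1267 calls among all genes and 18, not 28, among the other lists, Bax (0.81) and Gadd45b (0.75) lost their call, 1 cell cycle gene and 0 relatives of the members fell, and 1 stress response gene rose and 1 fell. The deviations of mice with equal numbers correlated at -0.34, -0.03 and 0.08, and 0 of 3 hep-/- mice correlated best with their own number. So few mice cannot decide whether equal numbers mark pairs. The sign turned for Phlda3 (-0.0049 on log2(FPKM + 1), filtered or not, and -0.0074 on log2(FPKM + 0.1)), Sesn1 (-0.019, -0.022, -0.0082 with the block, -0.016 without flox/flox replicate 4 and -0.11 without hep-/- replicate 2), Btg2 (-0.109, -0.118 and -0.59 without hep-/- replicate 3) and Pmaip1 (-0.0057 on log2(FPKM + 0.1), -0.013 without hep-/- replicate 3). Over the mice left out in turn, Ccng1 ran from -0.64 to -0.04, Sesn1 ran from -0.11 to 0.30, Btg2 from -0.59 to 0.51 and Pmaip1 from -0.013 to 0.47. The cause was not tested. Among the 7 members without a call, the 95% interval of Btg2 was the widest, from -0.76 to 1.08.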

Other observations

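Markers of other liver cell types gave these summed levels, with two-sided exact permutation tests of 4 flox/flox against 3 hep-/- mice. T and B cell markers summed to 9.11 to 23.0 CPM in flox/flox and 18.8 to 36.8 CPM in hep-/- livers (exact p = 0.20), and neutrophil markers to 9.24 to 24.4 and 11.6 to 24.7 CPM (exact p = 0.857). Stellate cell and collagen markers summed to 391 to 748 and 380.3 to 819 CPM (exact p = 0.514), and cholangiocyte markers to 253 to 656 and 259 to 870 CPM (exact p = 0.886). Spp1 made up most of the cholangiocyte sum, at 240 to 621 CPM in flox/flox and 236 to 797 CPM in hep-/- livers. That sum and its test therefore speak mainly to Spp1. Endothelial markers summed to 64.8 to 259 and 85.2 to 106 CPM (exact p = 0.971), of which Kdr fell by 1.33 on the log2 scale (adjusted p = 0.0441 by edgeR), and was at -1.34 without hep-/- replicate 3 with an adjusted p = 0.0931. Its call was kept in 2 of the 7 fits that left out 1 mouse. Hepatocyte markers, whose ranges are given above, had an exact p = 0.229. The 2 nuclear RNAs, which are retained in the nucleus, summed to 378 to 2147 CPM in flox/flox and 1440 to 2682 CPM in hep-/- livers (exact p = 0.20). No p of these 7 tests was below 0.05, and the smallest that they can give is 0.0286.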
